A study of Mus musculus with 6 samples.

Results

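The genes described here are 10 genes of the circadian clock, comprising the core oscillator genes *Arntl*, *Clock*, *Per1*, *Per2*, *Per3*, *Cry1* and *Nr1d1* and the output genes *Dbp*, *Tef* and *Hlf*. They were chosen by name, by matching the gene symbol of each transcript in the deposited table, and all 10 were found. *Hlf* was included also because it is on a list of predicted targets of the miR-17~92 cluster. The authors made that list by joining target predictions with RNA-Seq differences between genotypes, so *Hlf* was not chosen by sequence alone. The 10 genes account for 31 of 54721 listed transcripts and for 10 of 23276 gene symbols. Total RNA of 6 mouse kidneys was sequenced, 3 from Ksp/Cre mice with the Pkd1 F/RC genotype (*Pkd1* F/RC SKO, single knockout) and 3 from mice that also carried floxed alleles of the miR-17~92 cluster on both chromosomes (*Pkd1* F/RC DKO, double knockout). All 6 mice therefore shared the Cre transgene and the mutant *Pkd1* genotype, no kidney without a *Pkd1* mutation was among them, and the labels give their age as postnatal day 22. Ksp/Cre is driven by the promoter of kidney-specific cadherin (*Cdh16*) and acts in tubule epithelium, so other cells of these whole kidneys keep unrecombined alleles. The hour of the day at which the kidneys were taken is not given in the sources used here.

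The table gives 1 abundance for each transcript, a mean over all 6 kidneys, which is the authors' mean log2 CPM (CPM, counts scaled to the total count of the table). It has no value for a single kidney or a single genotype. The other columns hold the authors' own test of DKO against SKO and were not used, so what follows describes the level of each gene over the 6 kidneys and makes no comparison of the genotypes. No spread between mice, read depth or interval can be given for any level, the order of genes with close levels is not resolved, and the loss of the cluster in the DKO kidneys could not be checked. In whole-kidney RNA, fewer cells of a type and less RNA per cell cannot be told apart. Genes that mark kidney epithelium were abundant. *Umod* (thick ascending limb) had an authors' mean of 1022 CPM, *Slc34a1* (proximal tubule) 1030 CPM, *Cdh16* 480.4 CPM and *Aqp2* (collecting duct) 77.7 CPM, and the lowest of 8 such markers was the podocyte gene *Nphs1* with 13.0 CPM.

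The mammalian clock is a feedback loop of transcription that runs in nearly every cell. CLOCK and ARNTL (also named BMAL1) bind E-box elements and activate *Per* and *Cry* genes, whose proteins return to the nucleus and repress that activation. In a further loop NR1D1 (REV-ERBα) represses, and ROR proteins activate, *Arntl* through ROR elements. DBP, TEF and HLF are transcription factors of the PAR bZIP family (a basic leucine zipper with a proline and acidic amino acid rich domain), which the clock drives and which act on D-box elements. In kidney these output factors are known as regulators of detoxification genes, and loss of all of them together causes disease in mice. Because single clock transcripts rise and fall over the day in opposite phases, a mean over kidneys of unknown hour does not give the daily mean of any of these genes.

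Matches to the elements named above, and to the cAMP response element, are shown first, for the members whose promoter window holds them. The cAMP response element is not part of the loop described above. RefSeq promoter windows of 300 bases on GRCm38.p6, the assembly of mm10, from 250 bases before to 50 after the transcript start, were available for 9 members, with 14 windows in all, and *Per2* had no entry. The letters searched on both strands were CACGTG (E-box), CACGTT (E′-box, a variant), TTATGTAA and TTACGTAA (D-box), TAGGTCA and TGGGTCA (ROR element, RORE) and TGACGTCA (cAMP response element, CRE). None of these motifs overlapped another in the members' windows. In the following lines capitals mark the motif, and each stretch reads 5′ to 3′ on the strand of the gene.
*Per1* E-box, chr11:69098771-69098800, plus strand: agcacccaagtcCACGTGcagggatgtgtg
*Cry1* E-box, chr10:85185097-85185126, minus strand: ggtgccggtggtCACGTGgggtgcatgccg
*Cry1* E′-box read on the opposite strand, chr10:85185116-85185145, minus strand: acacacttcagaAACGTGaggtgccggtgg
*Nr1d1* E′-box read on the opposite strand, chr11:98775388-98775417, minus strand: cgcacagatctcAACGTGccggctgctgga
*Tef* E-box of the upstream start, chr15:81802534-81802563, plus strand: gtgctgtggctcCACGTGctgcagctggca
*Tef* E-box of the downstream start, chr15:81811264-81811293, plus strand: cacctggcccagCACGTGtctacatcgttt
*Per3* D-box, chr4:151044851-151044882, minus strand: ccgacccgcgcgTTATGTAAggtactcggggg
*Per3* D-box nearer the start, chr4:151044804-151044835, minus strand: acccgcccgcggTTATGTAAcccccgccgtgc
*Arntl* RORE, chr7:113207529-113207559, plus strand: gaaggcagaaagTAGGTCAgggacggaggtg
*Hlf* CRE, chr11:90390907-90390938, minus strand: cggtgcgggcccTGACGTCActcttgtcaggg

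The motifs fell on different members. The canonical E-box stood in 4 of the 14 windows and in 3 genes, *Per1*, *Cry1* and *Tef*, beside 7.15% of all 32851 windows in the RefSeq promoter table. Both starts of *Tef* carried it, at -127 and -138 (negative positions count bases upstream of the transcript start). The E-boxes of *Per1* and *Tef* lie inside the gene spans given below, which begin at chr11:69095217 and chr15:81802421. Both *Per1* windows belong to starts within its span, and no window at chr11:69095217 was searched. The E′-box was in 2 windows, those of *Cry1* at -79 and of *Nr1d1* at -28, beside 4.68% of all windows. *Cry1* thus held both forms within a short stretch, with its E-box at -60. The D-box TTATGTAA was present in 1 window, in which it occurred at -205 and again at -158, and 0.938% of all windows hold it. That window belonged to *Per3*, and the form TTACGTAA was in 0 of the members' windows and in 0.119% of all. The RORE letters TAGGTCA were found only in *Arntl*, at 31 bases into the transcript of the second of its overlapping windows, with 2.61% of all windows holding them. TGGGTCA was in 0 of the members' windows and in 3.98% of all. *Hlf* held the CRE at -9, a motif in 1.79% of all windows. For *Clock*, *Dbp* and *Per2* no motif is shown: *Clock* and *Dbp* had no match in these windows, which says only that the letters are not within this distance of the start. The members' windows were rich in G and C, and 13 of the 14 lay above the median GC content of all windows, 52.7%. A match of letters is a description of the sequence and was not measured as binding in these kidneys.

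**Figure D1:**
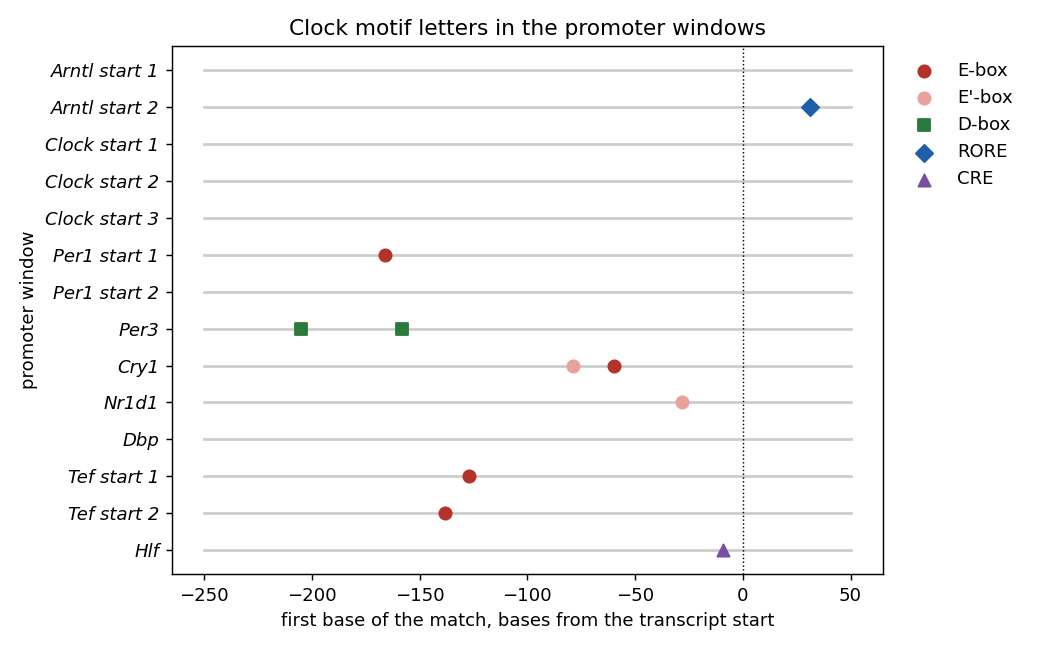
Position of each motif match in the 14 promoter windows of 9 genes, as bases from the transcript start on the x axis with 1 line per window. E-boxes lie upstream of a start of *Per1*, the start of *Cry1* and both starts of *Tef*. For *Per1* and *Tef* they are inside the listed gene span. The pair of D-boxes lies upstream of *Per3*, and the RORE of *Arntl* lies inside the transcript.

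*Arntl* and *Clock* encode the partners of the activating complex, and their transcripts were listed at different levels. *Arntl* (chr7:113207465-113314126, plus strand) was the least abundant member. Its RefSeq transcripts NM_007489 and NM_001243048 had an authors' mean log2 CPM of 1.84 and 1.81, or 3.58 and 3.52 CPM. *Clock* (chr5:76209868-76304792, minus strand) was listed with 3 assembled transcripts at 5.39, 5.39 and 5.38 log2 CPM and the RefSeq transcript NM_007715 at 5.26. Because longer transcripts collect more reads, levels of different genes were compared as CPM per kilobase (kb) of the most abundant RefSeq transcript. On that scale *Clock*, with a transcript of 7478 nucleotides, had 5.13 CPM per kb and *Arntl*, with 2908 nucleotides, had 1.23 CPM per kb, a ratio of 4.17 between levels. The paralogues were lower still. *Npas2*, which can replace *Clock*, had 0.273 CPM per kb, so the level of *Clock* per kb was 18.8 times higher, and *Arntl2* had 0.364 CPM per kb.

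The repressing arm is made of the period and cryptochrome proteins, which bind each other and block CLOCK and ARNTL. The 3 period genes were all expressed. *Per1* (chr11:69095217-69109960, plus strand) was listed with 4 transcripts between 5.07 and 5.09 log2 CPM, the highest at 34.0 CPM. *Per2* (chr1:91415982-91459324, minus strand) had 3 transcripts between 4.68 and 4.70 log2 CPM, and *Per3* (chr4:151003652-151044665, minus strand) had 6 between 4.16 and 4.71 log2 CPM. Per kb of RefSeq transcript their levels were 7.19 for *Per1*, 4.40 for *Per2* and 3.56 for *Per3*, a span of 2.02-fold. *Cry1* (chr10:85131700-85185064, minus strand), which encodes a repressor related to photolyases, was listed with 1 transcript at 2.04 log2 CPM, or 4.12 CPM. Its level of 1.36 CPM per kb was far below that of *Per1*, by 5.28-fold, and its paralogue *Cry2* stood at 2.43 CPM per kb, 1.79 times the level of *Cry1*. The value of *Cry2* depends on the transcript. The RefSeq transcript used was listed at 9.665 CPM, and another, without a known length here, at 4.566 CPM. *Arntl* and *Cry1* were thus the pair of members with low levels, and both lay just below the median of 1.404 CPM per kb over the 20167 genes with a length, above 48.4% and 49.6% of those genes.

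*Nr1d1* encodes a haem-binding nuclear receptor that represses *Arntl*. It lies at chr11:98767932-98775333 on the minus strand, and its RefSeq transcript NM_145434 had 4.76 log2 CPM, or 27.1 CPM, above its assembled transcripts at 4.55 and 4.40. Its level of 9.95 CPM per kb was 8.09 times that of *Arntl*. The related *Nr1d2* was higher, at 15.7 CPM per kb. Of the opposing activators, *Rorb* had 0.0455 CPM per kb and *Rora* 0.371 CPM per kb. The value of *Rora* depends on the transcript, since its RefSeq transcript was listed at 4.03 CPM and an assembled one, without a known length here, at 24.8 CPM.

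The PAR bZIP output genes were among the more abundant members. *Tef* (chr15:81802421-81826863, plus strand) had the highest levels of all 10 genes. Its transcripts were listed at 6.46, 6.30, 6.30 and 6.21 log2 CPM, the highest at 88.2 CPM, and its RefSeq level of 19.3 CPM per kb exceeded that of 92.9% of genes with a length. *Dbp* (chr7:45705088-45710203, plus strand) had 4.21 log2 CPM for its RefSeq transcript and 4.12 and 3.80 for the assembled ones. Its transcript is short, at 1837 nucleotides, so that *Dbp* and *Nr1d1* came next after *Tef* per kb, *Dbp* at 10.1 CPM per kb, although only *Arntl* and *Cry1* had a lower CPM. *Hlf* (chr11:90336536-90390895, minus strand) was listed with a single transcript, NM_172563 of 5642 nucleotides, at 5.45 log2 CPM or 43.6 CPM. Per kb it had 7.73, so the level of *Tef* was 2.50 times and that of *Dbp* 1.31 times the level of *Hlf*. *Nfil3*, which encodes the repressor that competes for the same D-boxes, had 1.13 CPM per kb, below each of the 3 activators by 6.85-fold (*Hlf*) to 17.1-fold (*Tef*).

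**Figure D2:**
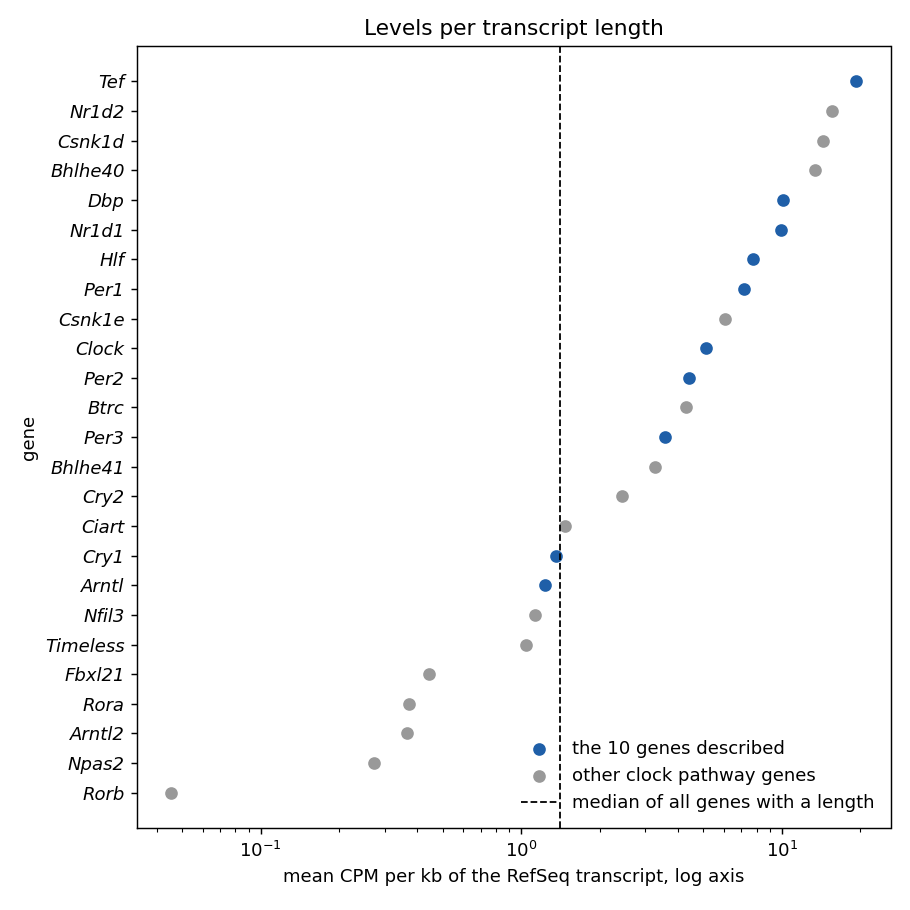
Authors' mean CPM over the 6 kidneys divided by the length in kb of the most abundant RefSeq transcript, on a log axis, for the 10 genes and 15 other clock pathway genes, with the median of all genes with a length as a dashed line. *Tef* is highest at 19.3 CPM per kb, and *Arntl* and *Cry1* are the members to the left of the line.

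All 10 members were above 1 CPM, as were 55.9% of all gene symbols. Their median was 6.16 CPM per kb, beside 1.404 for all genes with a length and 4.06 for those with a length and at least 1 CPM, and 8 of the 10 lay above the first and 7 above the second. A list of 15 further genes of the pathway had a median of 1.48 CPM per kb, and 13 of them reached 1 CPM. Those below it were *Rorb* and *Fbxl21*. Among the proteins that set the stability of PER and CRY, the kinase gene *Csnk1d* stood at 14.4 and *Csnk1e* at 6.06 CPM per kb. The ubiquitin ligase genes *Btrc* and *Fbxl21* had 4.30 and 0.445 CPM per kb. Of the E-box repressors, *Bhlhe40* had 13.4 CPM per kb and *Ciart*, listed under its older symbol Gm129, had 1.48. *Bhlhe41* had 3.26 CPM per kb on a transcript of 744 nucleotides and 0.395 on its longest one, so its place is uncertain. *Timeless*, whose product acts mainly in DNA replication in mammals, had 1.04 CPM per kb.

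The listed transcripts of a gene differed little in *Arntl*, *Clock*, *Per1* and *Per2* and more in *Tef*, *Nr1d1*, *Dbp* and *Per3*. Of the 31 transcripts, 13 were RefSeq mRNAs and 18 were assembled from the reads, and 8 genes had more than 1. The difference between the highest and lowest transcript of a gene ranged from 0.02 on the log2 scale for *Per1* to 0.56 for *Per3*, beside a median of 0.16 over 8470 genes with more than 1 transcript and at least 1 CPM. The assembled transcripts of *Per2* had equal values to 6 decimals, as occurred in 15.3% of those 8470 genes. How reads shared by transcripts were counted is not given in the sources used here, so the level of a transcript cannot be read as that of its isoform alone. *Per3*, *Dbp* and *Nr1d1* showed the widest spread between transcripts, with the top transcript 1.47, 1.33 and 1.28 times the lowest.

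**Figure D3:**
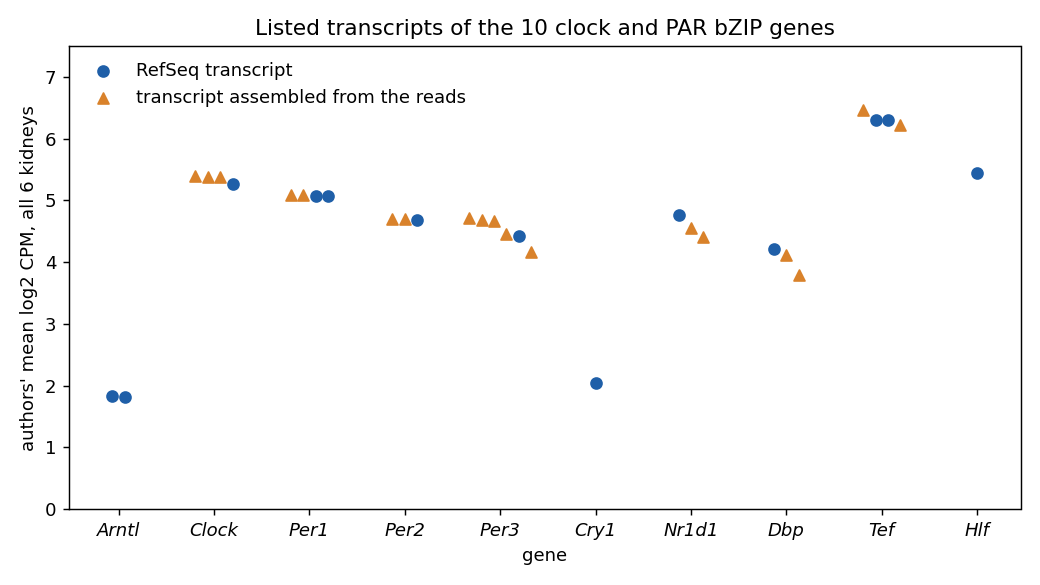
Authors' mean log2 CPM over the 6 kidneys for each of the 31 listed transcripts, grouped by gene, with RefSeq transcripts as circles and assembled ones as triangles. Transcripts of *Per1* and *Per2* lie close together, those of *Per3* are spread from 4.16 to 4.71, *Tef* lies above 6, and *Arntl* and *Cry1* lie near 2.

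The DKO mice differ from the SKO mice by their floxed miR-17~92 alleles, so the miRNAs of that cluster and the letters complementary to their seeds in *Hlf* and the other members are given. The mature miRNAs are encoded on the plus strand of chromosome 14 (GRCm38.p6, sequences from RefSeq), and capitals mark the seed, bases 2 to 8, through which a miRNA pairs with its target.
miR-17-5p, chr14:115043684-115043706: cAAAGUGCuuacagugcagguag
miR-20a-5p, chr14:115044183-115044205: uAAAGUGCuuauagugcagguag
miR-18a-5p, chr14:115043867-115043889: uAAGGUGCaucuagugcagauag
miR-19a-3p, chr14:115044048-115044070: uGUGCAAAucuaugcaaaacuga
miR-19b-3p, chr14:115044358-115044380: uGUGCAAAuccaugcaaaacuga
miR-92a-3p, chr14:115044476-115044496: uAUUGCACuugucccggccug
miR-17 and miR-20a share a seed, as do miR-19a and miR-19b, so the cluster holds 4 seeds.

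The complement of each seed was sought in the 3′-UTR of the most abundant RefSeq transcript of each gene, as annotated by GENCODE on GRCm38. All 10 members had a 3′-UTR, and 4 of them, *Clock*, *Hlf*, *Tef* and *Per2*, held 9 matches in total. The match to miR-17 and miR-20a, GCACTTT, was in 3 of the 10 members, beside 11.0% of 18914 genes with a 3′-UTR. The match to miR-19, TTTGCAC, was in 2 members and 10.1% of genes, that to miR-92a, GTGCAAT, in 2 members and 6.0% of genes, and that to miR-18a, GCACCTT, in 0 members and 7.2% of genes. Because *Hlf* was chosen as a predicted target of the cluster, its matches follow from that choice. Without it the miR-17 match was in 2 of 9 members and the miR-19 match in 1 of 9, and nothing is read from these counts. The sites, all in the last exon of the gene, read as follows, with the match in capitals.
*Hlf* miR-17 site, chr11:90340652-90340678, minus strand, exon 4 of 4: tctgacatcaGCACTTTaccagaggca
*Hlf* miR-19 site, chr11:90339990-90340016, minus strand, exon 4 of 4: cagagtgtgtTTTGCACtgtctgtacc
*Tef* miR-17 site, chr15:81824939-81824965, plus strand, exon 4 of 4: cctcacagctGCACTTTtctcttctat
*Tef* miR-92a site, chr15:81826480-81826506, plus strand, exon 4 of 4: tgttaattaaGTGCAATaaaattttct
*Clock* first miR-17 site, chr5:76215664-76215690, minus strand, exon 23 of 23: aacattttagGCACTTTtttaacattc
*Clock* second miR-17 site, chr5:76212842-76212868, minus strand, exon 23 of 23: aaggtaataaGCACTTTattgcaatta
*Clock* first miR-19 site, chr5:76215685-76215711, minus strand, exon 23 of 23: aagagtaaagTTTGCACacaaaacatt
*Clock* second miR-19 site, chr5:76212367-76212393, minus strand, exon 23 of 23: ttgtaatattTTTGCACaaaaaggact
*Per2* miR-92a site, chr1:91416058-91416084, minus strand, exon 23 of 23: ccttcacccaGTGCAATatatttgtgt

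The matches stood in members with a long 3′-UTR. *Clock* has 4522 nucleotides after its stop codon, *Hlf* 4223, *Tef* 3017 and *Per2* 1889, and *Per3*, with 2224, was the only member above the median of 786 nucleotides without a match. The 3′-UTRs of *Arntl*, *Cry1*, *Dbp*, *Nr1d1* and *Per1* are between 288 and 612 nucleotides long and held none. In *Hlf* the miR-17 match began 91 nucleotides after the stop codon and the miR-19 match at 753. In *Tef* the miR-17 match began at 1268 and the miR-92a match at 2809, and in *Clock* the first miR-19 and miR-17 matches, at 998 and 1019, lay close together. These positions describe the sequence, and pairing with the miRNAs was not measured.

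**Figure D4:**
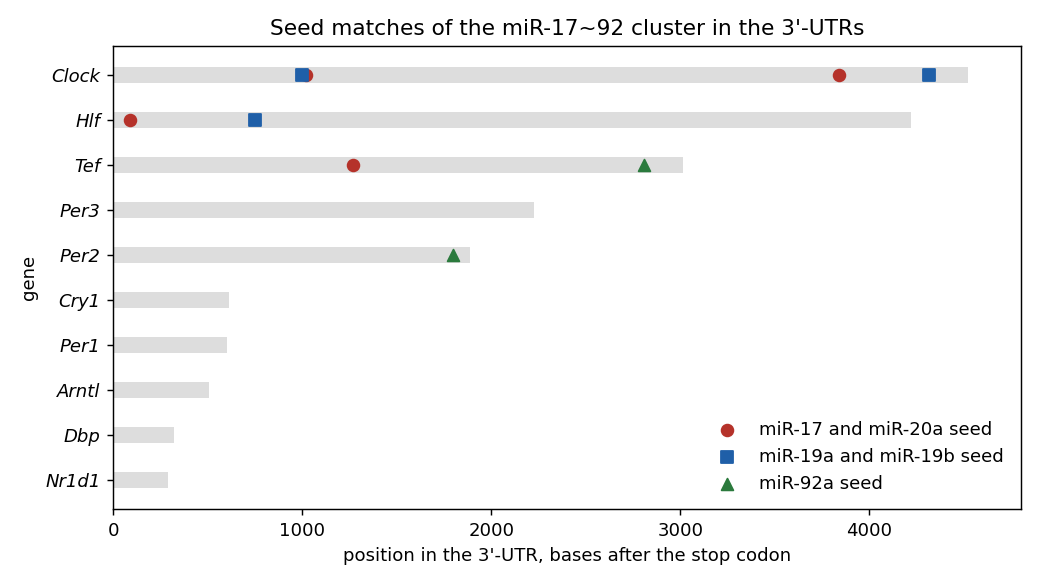
Length of the 3′-UTR of each of the 10 genes as a grey bar, with the first base of each seed match of the cluster as a point, in bases after the stop codon. All 9 matches lie in *Clock*, *Hlf*, *Tef* and *Per2*, and the 5 genes with the shortest bars have none.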

How the data were processed

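Whole-kidney RNA was sequenced from strand-specific libraries. Trimmed reads were aligned by the authors to mm10 with TopHat 2.0.12 and the UCSC iGenomes gene models, alignments of low mapping quality were dropped, and abundance was estimated with edgeR or Cuffdiff. The submitters' processing notes also name featureCounts, Subread 1.4.6, Cufflinks and edgeR 3.2.4. The deposited log2 values, edgeR's log2 of the mean CPM of each of 54721 transcripts over all libraries, were used as they stand. Back-transformed they sum to 1007270, and the lowest, held by 4617 transcripts, is 0.0263 CPM. A lowest value shared by that many transcripts is not read as a measured level. The other 4 number columns hold the log2 fold change of DKO against SKO kidneys, its likelihood ratio statistic, p-value and adjusted p-value. They are the authors' own comparison and were not used. A quasi-likelihood test of the genotypes was planned but could not be run without counts per sample.

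Each gene was given the level of its most abundant transcript. Lengths came from GENCODE transcripts of GRCm38 matched by RefSeq identifier, for 26086 of 27012 RefSeq mRNAs. Every member and 15 further pathway genes are named in the text, and 2 genes of the list as planned are not reported here. The members and lists were chosen with earlier results of these data known, and the kidney markers and the pairs of genes compared after the table was seen. Motif searches were tested on simulated data. Python 3.11.15, numpy 2.4.6, pandas 2.3.3 and matplotlib 3.10.9 were used.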

Additional observations from a re-analysis of the deposited data

How the results depend on the processing

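The median level of the 10 members was 26.7 CPM with the most abundant transcript of each gene. It was 74.7 CPM with the sum over all transcripts of a gene, which may count shared reads repeatedly, and 26.4 CPM with RefSeq transcripts alone, an alternative chosen after seeing the data. The median per kb was 6.16 with the longest RefSeq transcript of each gene as well, also chosen after seeing the data. Summing put *Tef* at 319.8 CPM, *Clock* at 163.7 CPM and *Per3* at 138.4 CPM and left *Hlf* and *Cry1*, with a single transcript each, at 43.6 and 4.12 CPM. The planned test of the genotypes, DESeq2, an unfiltered fit, 1 transcript per gene within that test and the omission of single replicates need values per sample and were not run. No paired analysis was possible because abundances are given for all kidneys together. Depth is unknown, so no limit of detection was set.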
